A study of Homo sapiens with 42 samples.

Results

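Chromatin accessibility at baseline was compared between HCC827 and HCC2935, both lung adenocarcinoma lines with mutant EGFR, in 3 control libraries of each line out of 42 in the series. The regions compared were those of the tables annotated by the authors that overlapped one to one by at least 50% of their length. This gave 21640 pairs from 30709 regions of HCC827 and 65264 of HCC2935, or 70.5% and 33.2% of the tables. All 6 control cultures of both lines had 21 days in medium without drug and then 3 days in DMSO, the drug solvent. Libraries of both lines after 24 days of 500 nM osimertinib, an EGFR kinase inhibitor (called DTP in the labels), were read beside them. So were libraries after 21 days of osimertinib and then 3 days of 150 nM AZD5153, a BET bromodomain inhibitor (called combo). Each group had 3 libraries, which the labels give as biological triplicates. Each line is a single established culture, so the comparison is of 2 lines and not of 2 kinds of tumour. Titles and design name ATAC-seq, while the extraction text in the labels describes precipitation of acetylated histone H3. The values were read as ATAC-seq.

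ATAC-seq counts the insertions that a transposase makes into DNA that is not packed in nucleosomes. Promoters of most active genes are open in nearly every cell type, while distal enhancers differ more with lineage. In tumour lines a count also scales with the number of DNA copies, and EGFR mutant lung tumours often carry extra copies of EGFR itself. More copies and more accessibility per copy cannot be told apart from these counts alone, so each difference is given as measured and also beyond the median of its surroundings.

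Sequences of 4 promoters are shown as examples of listed genes whose promoters differed between the lines. They do not cover all of the largest differences, and KLF10 is named later without a sequence. They are the 250 bases before the start of the gene in RefSeq (GRCh38.p14, the build hg38 of the tables), in the direction of the gene. The promoter of CDK4, a cell cycle kinase, lies at chr12:57752311-57752560, minus strand. That of CAV1, the caveolae protein, lies at chr7:116524759-116525008, plus strand. TWIST2, a mesenchymal transcription factor, has it at chr2:238847835-238848084, plus strand. These 3 genes were higher in HCC827. ALK, a receptor tyrosine kinase at chr2:29921587-29921836, minus strand, was lower. TEAD4 and HOXA5 were also chosen by the rule and are named only. Capitals mark matches on either strand of the GC box GGGCGG, the CCAAT box CCAAT and the NKX2-1 letters CAAGTG.
CDK4: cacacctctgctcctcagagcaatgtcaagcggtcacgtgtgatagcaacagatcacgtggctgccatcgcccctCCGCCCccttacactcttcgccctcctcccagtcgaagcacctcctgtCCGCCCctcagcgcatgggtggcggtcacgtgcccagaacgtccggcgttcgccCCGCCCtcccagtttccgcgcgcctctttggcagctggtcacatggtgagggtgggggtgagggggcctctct
CAV1: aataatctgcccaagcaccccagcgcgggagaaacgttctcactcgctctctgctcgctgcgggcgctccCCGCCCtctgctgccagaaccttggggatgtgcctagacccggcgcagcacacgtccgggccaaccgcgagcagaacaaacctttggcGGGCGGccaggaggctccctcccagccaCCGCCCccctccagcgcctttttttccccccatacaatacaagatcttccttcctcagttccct
TWIST2: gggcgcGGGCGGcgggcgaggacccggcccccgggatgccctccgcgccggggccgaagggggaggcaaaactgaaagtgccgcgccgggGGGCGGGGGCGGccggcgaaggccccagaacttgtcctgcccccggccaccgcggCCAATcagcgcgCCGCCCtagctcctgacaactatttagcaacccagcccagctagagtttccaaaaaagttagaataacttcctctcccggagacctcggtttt
ALK: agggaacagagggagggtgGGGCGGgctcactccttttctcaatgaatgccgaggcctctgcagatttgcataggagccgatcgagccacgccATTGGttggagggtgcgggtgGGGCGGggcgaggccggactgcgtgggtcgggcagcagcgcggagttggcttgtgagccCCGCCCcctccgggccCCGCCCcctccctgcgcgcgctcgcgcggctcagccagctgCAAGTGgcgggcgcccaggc

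The ALK window lay wholly inside the compared region (250 of 250 bases), and 175 of 250 bases of the CAV1 window did. For CDK4 and TWIST2 the compared region lay beside the window, with 0 bases shared. The GC box occurred 3 times in CDK4, 3 times in CAV1, 4 times in TWIST2 and 4 times in ALK. It was present in 42.3% of the 27305 RefSeq promoters of this length, the CCAAT box in 33.0% and the NKX2-1 letters in 9.59%. Other letters searched on both strands were TGANTCA for AP-1 (6.6% of promoters), TGACGTCA for CRE (1.77%), TGTTTAC for FOXA (2.98%) and AGATAA for GATA (9.37%). GGAATG for TEAD (11.9%), CCGGAAG for ETS (8.82%), GTTAAT for HNF1 (6.22%), ACAAAG for SOX (13.7%) and CAAAGTCCA for HNF4 (0.293%) completed the search. The SOX and HNF4 letters share a stretch and can overlap. None of these 9 was found in the 4 windows. Among promoters called lower in HCC827 beyond the bin, as defined next, 43.9% of 833 held a CCAAT box, against 35.7% of 885 called higher and 38.2% of 5616 matched but not called. The GC box was in 70.4% of those called higher, 65.1% of those called lower and 69.0% of those not called. These shares are descriptions without a test.

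Before any allowance for surroundings, differences between the lines were widespread. Of 21526 regions that passed the filter on low counts, 10169 (47.2%) were called, meaning that edgeR's quasi-likelihood F test gave an adjusted p under 0.05. In HCC827, 5268 (24.5%) were higher and 4901 (22.8%) were lower. A difference of at least 1 on the log2 scale was reached by 4873 of the called regions. The 3 libraries of one line lay all above the 3 of the other in CPM, the count scaled by the library's total over matched regions and its TMM factor, at 11898 regions (55.3%). Here and in all that follows, a log2 difference is HCC827 minus HCC2935. The median over all tested regions was 0.04.

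A large share of these differences followed the chromosome. On chromosome 8 the median log2 difference of 633 regions was 0.89, with 61.5% called higher in HCC827 and 3.16% lower. Chromosome 12 had a median of 0.68 over 1159 regions, with 59.4% called higher. The opposite held for chromosome 22, with a median of -0.80 over 414 regions and 64.5% called lower. Chromosomes 14, 15 and 6 had medians of -0.58, -0.55 and -0.54, with 51.6%, 50.8% and 49.3% of their regions called lower. The X chromosome had a median of 0.51.

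Bins of 10 Mb with at least 50 regions resolved this further. There were 163 such bins, holding 81.2% of the tested regions. Their medians had a standard deviation of 0.57, and 89 of them lay at least 0.3 from 0, 42 above and 47 below. The summed counts of 133 bins (81.6%) differed between the lines by edgeR's test, 59 higher and 74 lower in HCC827. A sum can differ in sign from the median of its bin. Chromosome 6 from 10 to 20 Mb, for example, was called higher by its sum (0.53) with a median of -0.39. In 131 bins the median deviations of the libraries of one line lay all above those of the other. Bins shifted by at least 0.3 held 53.6% of the regions in bins, 65.9% of the calls as measured and 54.4% of the calls beyond the bin.

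**Figure D1:**
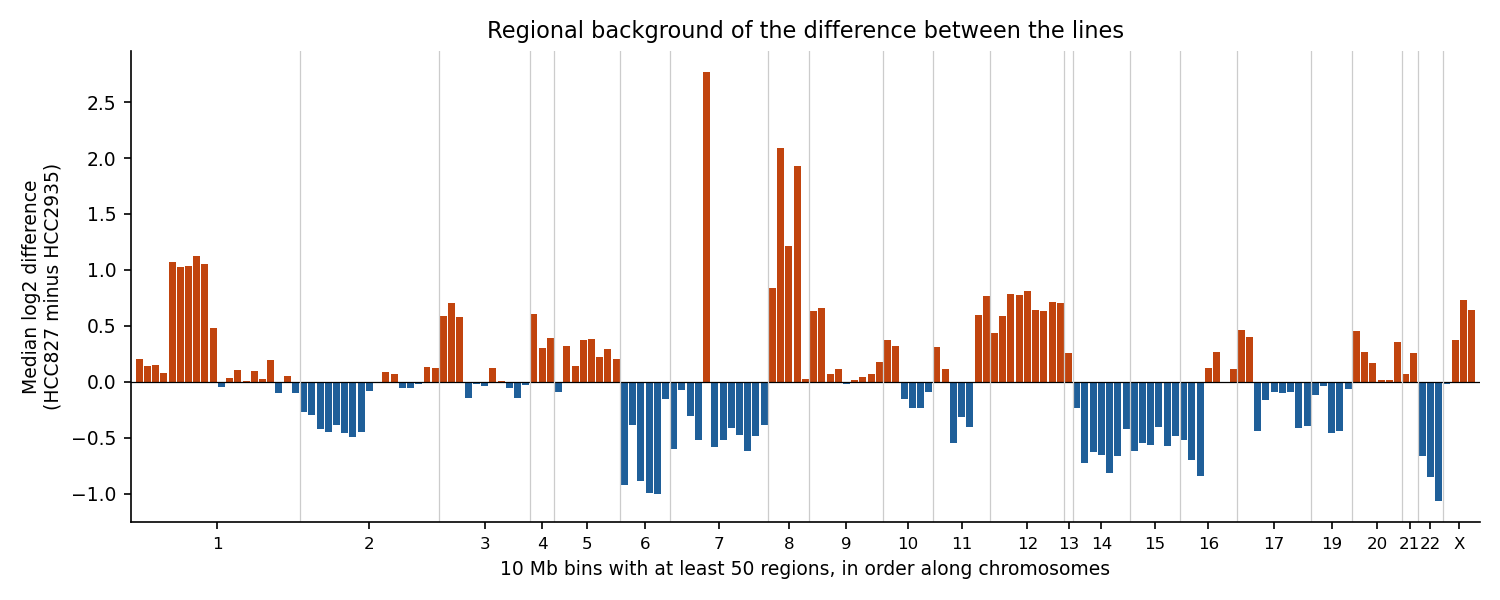
Median log2 difference (HCC827 minus HCC2935, control libraries) in each of the 163 bins of 10 Mb with at least 50 regions, in order along the chromosomes. Chromosome 18 has no such bin. Bars above 0 are higher in HCC827. The tallest bar is on chromosome 7 at 2.77, neighbouring bars on chromosomes 8 and 12 stand above 0, and chromosomes 6, 14 and 22 lie below it.

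The highest bin was chromosome 7 from 50 to 60 Mb, where EGFR lies, with a median of 2.77 over 92 regions (adjusted p 1.88e-09, edgeR on summed counts). Its libraries deviated from the mean of all 6 by 1.43, 1.61 and 0.81 in HCC827 and by -1.38, -1.32 and -1.11 in HCC2935. Replicate 3 of HCC827 thus stood lower than the other 2 but far above every HCC2935 library. Without it the median was 2.94. The same replicate had 39.4% of its full-table counts in the matched regions, against 27.9% and 29.1% in replicates 2 and 1. Whether that moved its value was not tested. The next 3 bins were all on chromosome 8, at 60 to 70 Mb (2.09), 120 to 130 Mb (1.93, which holds MYC and PVT1) and 100 to 110 Mb (1.21). Chromosome 1 from 80 to 90 Mb followed at 1.12. The lowest bins were chromosome 22 from 40 to 50 Mb (-1.06) and chromosome 6 from 40 to 50 Mb (-1.0), 30 to 40 Mb (-0.99), 0 to 10 Mb (-0.92) and 20 to 30 Mb (-0.88). In these 5 bins the HCC827 libraries deviated by -0.56 to -0.32, and no library of one line overlapped the other.

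Part of this profile recurred in treated cultures. Of the 89 bins shifted by at least 0.3 in control libraries, 84 had the same sign in the DTP and 83 in the combo libraries, and 62 in each were also still shifted by at least 0.3. The chromosome 7 bin had a median of 2.70 in DTP and 3.16 in combo. For chromosome 22 from 40 to 50 Mb the medians were -0.97 and -0.89. All 6 shifted bins of chromosome 14 were under 0.3 in both treatments. From 70 to 80 Mb, for example, the median was -0.82 in control, -0.07 in DTP and -0.02 in combo. On chromosome 11 the bin from 0 to 10 Mb turned from 0.31 to -0.44 in DTP and -0.45 in combo. These are other libraries of the same lines and not a second pair of lines. Whether a bin differed between control and treated libraries was not tested.

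At a finer scale the largest shifts had sharp edges inside a bin. All pairs matched in the full tables, which hold regions without the authors' filter, were used for this (128665 pairs, 75558 tested, 32003 or 42.4% called). Of 1916 windows of 1 Mb with at least 10 such regions, 29 had a median of at least 2 and 9 of at most -2. Around EGFR the median was -0.35 at 51 to 52 Mb of chromosome 7, then 3.09 at 53 to 54 Mb, 3.81 at 54 to 55 Mb and 4.03 at 55 to 56 Mb. It was 2.07 at 56 to 57 Mb. At 55 to 56 Mb the median CPM of a full-table region was 38.7, 42.9 and 22.7 in HCC827 and 1.79, 2.13 and 2.26 in HCC2935. All HCC827 libraries exceeded all HCC2935 libraries in 224 of the 226 regions there.

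The annotated table of HCC827 was crowded in the same stretch. It held 1782 regions on chromosome 7 between 53 and 58 Mb, against 81 in HCC2935. To EGFR, the receptor tyrosine kinase mutated in both lines, it gave 359 regions, and HCC2935 gave it 23. SEC61G, a subunit of the protein translocon, had 285 against 12, LANCL2 had 217 against 8, and VOPP1 had 203 against 11. EGFR, the most crowded gene of HCC827, took 1.17% of that table. In HCC2935 the most crowded gene was TNS3, with 50 regions against 16. Only 19 of the EGFR regions could be matched, since a pair needs a region in both tables.

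EGFR was higher in HCC827 at every matched region. Its promoter region at chr7:55018699-55019200 had 700.0, 825 and 552 CPM in HCC827 and 42.2, 45.0 and 35.9 in HCC2935. The lines did not overlap, and the log2 difference was 4.06 (adjusted p 1.29e-10). The highest region of the gene, in an intron at chr7:55132714-55133215, had 2280, 1800 and 1590 CPM against 189, 144 and 214. Beyond the bin 11 of the 19 regions were still called higher and 0 lower, with a median of 0.90. The promoter difference was then 1.5 ± 0.15 (SE, adjusted p 5.93e-06). Against the median of regions within 250 kb the promoter difference was 0.36 (adjusted p 0.128) and the median of the 19 regions was -0.23. Of the 19, an intronic region at chr7:55073806-55074307 had the largest difference beyond the bin, 2.91. It had 1460, 1310 and 1170 CPM against 29.0, 22.5 and 40.0. In the full tables it differed by 5.5, and a region nearer to the promoter region, at 0.0449 Mb from it, differed by 6.04.

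A much narrower stretch on chromosome 6 behaved alike. Between 11537258 and 11834229 there were 21 matched regions annotated to TMEM170B, a transmembrane protein, and ADTRP, which regulates an inhibitor of coagulation. Their log2 differences ran from 0.04 to 4.90 with a median of 3.35, and 20 of 21 were called higher beyond the bin. On either side the sign turned. Full-table medians were -2.14 at 11.2 to 11.4 Mb and -0.84 at 12 to 12.2 Mb, with 4.16 at 11.6 to 11.8 Mb between them. NEDD9, a scaffold of focal adhesions just before the stretch, had a median of -1.05 beyond the bin over 5 regions, 4 of them called lower. The table of HCC827 held 284 regions for ADTRP and 182 for TMEM170B, and that of HCC2935 held 20 and 7. With the local median 6 of the 21 regions were called higher.

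A stretch around CDK4 on chromosome 12 was narrower again. The full-table median was 4.33 at 57.6 to 57.8 Mb, with 0.99 before it and 0.22 after it. OS9, next to CDK4, had 77 regions in the table of HCC827 against 1. Further along the chromosome, RASSF3 had 121 against 4 and TBK1, a kinase of innate immune signalling, had 65 against 2. The CDK4 promoter region had 151, 148 and 85.2 CPM in HCC827 and 17.5, 11.3 and 15.5 in HCC2935. Its difference was 3.05 as measured, 2.29 beyond the bin and 0.85 beyond the local median (adjusted p 4.51e-07, 1.98e-05 and 0.0343). In the full tables, regions of the block just before CDK4 differed by 3.48 to 6.36. The CDK4 region differed by 3.12 there, and the next region after it by 1.23. Regions within 250 kb thus mix the block with its flanks, so the value of 0.85 does not place CDK4 above the block. At the CDK4 promoter region replicate 3 of HCC827 was again the lowest of its line without reaching the other line.

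**Figure D2:**
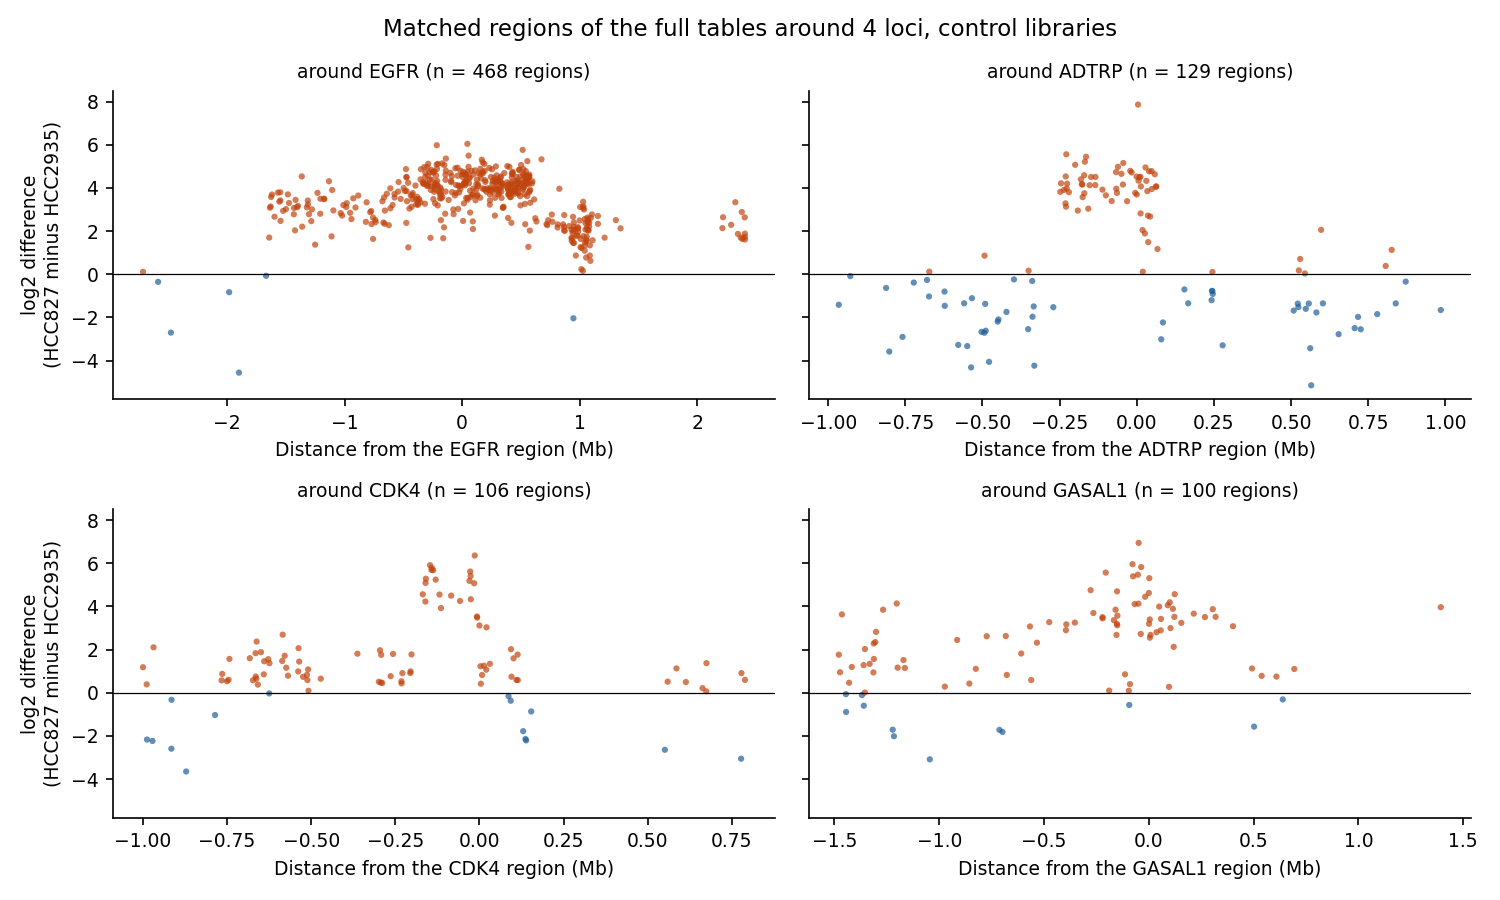
Each point is a matched region of the full tables, with its log2 difference (HCC827 minus HCC2935) against its distance in Mb from the region of EGFR, ADTRP, CDK4 or GASAL1. Around ADTRP a block of points near 4 is bordered on both sides by points mostly below 0, and around CDK4 a block of points near 4 to 6 lies just before the gene, with lower points on either side.

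The bin median removed the broad shifts and left 6794 regions called (31.6%), 3542 higher (16.5%) and 3252 lower (15.1%) in HCC827. Of the 10169 calls as measured, 5563 were called again in the same direction, 44 in the opposite direction, and 4562 (44.9%) were not called. A further 1187 were called only beyond the bin. The standard deviation of the differences fell from 0.955 to 0.824. With the median of neighbours within 250 kb, an alternative chosen after the data were seen, 6410 regions (29.8%) were called, of which 4860 were calls beyond the bin in the same direction.

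Regions outside promoters differed more often beyond the bin. Of 8371 such regions 3280 were called (39.2%), and of 13155 promoter regions 3514 (26.7%). Introns had 41.4% of 4179 called, distal intergenic regions 37.7% of 3163 and exons 35.8% of 665. As measured the shares were closer, 48.3% outside promoters and 46.6% within them. The standard deviation of the difference beyond the bin was 0.993 outside promoters and 0.696 in them. The matched set leans to promoters, which made up 60.9% of it against 53.3% of the table of HCC827 and 44.6% of that of HCC2935.

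The single regions with the largest differences beyond the bin were mostly distal or intronic. They had to be separated between the lines with a mean above the median of 36.9 CPM, and the 8 largest in each direction were taken, 1 per annotated gene. A gene name here is the authors' annotation of the region and says nothing of which gene the region acts on.

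NNMT, nicotinamide N-methyltransferase, led the regions that were higher in HCC827. Its region at chr11:114295054-114295555, in the promoter, had 131, 73.3 and 116 CPM in HCC827 and 0.547, 1.5 and 1.63 in HCC2935. That is 334 against 5 counts in all, so the size of the ratio rests on few counts. The difference beyond the bin was 5.91 ± 0.38 (SE, adjusted p 8.21e-08). PVT1, a long non-coding RNA beside MYC, had 293, 246 and 216 CPM against 1.09, 1.5 and 2.45 at a promoter region at chr8:127853968-127854469. Its difference was 7.20 as measured and 5.43 beyond the bin. Over the 12 matched regions of PVT1 the median beyond the bin was only 0.21, with 5 called higher and 2 lower, so the gene did not move as one.

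Regions of 4 other genes were also higher. An intronic region of CUX1, a homeobox factor, had 118, 82.1 and 94.2 CPM against 5.47, 3.0 and 5.71, a difference of 4.75 beyond the bin. The 20 matched regions of CUX1 had a median of 0.05, with 3 called higher and 2 lower. A region by PAPLN, an extracellular matrix protein, had 88.6, 76.2 and 74.8 CPM against 3.28, 7.50 and 7.34. MOGAT1, an enzyme of triglyceride synthesis, had 117, 108 and 109 CPM against 3.28, 3.0 and 4.89 in an intron, and both of its matched regions were called higher. An intergenic region assigned to the olfactory receptor gene OR1M1 had 65.1, 83.6 and 76.9 CPM against 2.19, 3.75 and 3.26. Separation was a condition of the choice, and in each the lowest library of HCC827 was far above the highest of HCC2935. Their differences beyond the local median were 4.43, 3.81, 5.00 and 3.77.

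The 2 others that were higher, ADTRP and TMEM170B, lie in the stretch on chromosome 6 described above. The ADTRP region had 105, 103 and 29.8 CPM against 2.74, 1.5 and 4.08. Its difference fell from 5.09 beyond the bin to 1.40 beyond the local median (adjusted p 0.0441). That of the TMEM170B region fell from 4.43 to 0.72 (adjusted p 0.0495).

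Regions that were lower in HCC827 followed. CLSTN2-AS1, an antisense RNA of a calsyntenin gene, had 8.97, 2.93 and 2.77 CPM in HCC827 and 94.2, 123 and 104 in HCC2935 at chr3:140466962-140467463. The difference beyond the bin was -4.61 ± 0.29 (SE, adjusted p 8.21e-08). OSMR-DT, the divergent transcript of the oncostatin M receptor gene, had 2.24, 14.7 and 2.08 CPM against 96.4, 104 and 104. Replicate 2 was the highest of HCC827 at this region and was still below all of HCC2935. SAMD4A, an RNA-binding repressor of translation, had 7.85, 16.1 and 1.39 CPM against 174, 186 and 195 at an intronic region. Its 8 matched regions had a median of -0.31, with 1 called higher and 1 lower.

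Regions of LINC01873, PDE4B and MIR4705 were also lower in HCC827, with the separation that the choice of regions required. LINC01873 had 10.1, 4.40 and 3.46 CPM against 114, 122 and 108. PDE4B, a phosphodiesterase that degrades cyclic AMP, had 19.1, 16.1 and 3.46 CPM against 72.8, 66.0 and 81.5. The region of MIR4705 had 4.49, 13.2 and 4.85 CPM against 70.1, 70.5 and 66.9. Beyond the bin these differed by -3.92, -3.65 and -3.56.

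COBL, an actin nucleator, and FIGNL1, which acts in repair by recombination, were named because of the bin they share with EGFR. A COBL region had 24.7, 22 and 22.2 CPM against 109, 90.8 and 127, a difference of -2.25 as measured and -4.73 beyond the bin. All 13 matched regions of COBL were called lower beyond the bin, with a median of -3.32, while the median as measured was -0.79 and beyond the local median -0.32. The FIGNL1 region differed by -1.19 as measured and by -3.68 beyond the bin. Both genes lie at 50 to 52 Mb, before the step at 53 Mb, so the median of 2.77 did not describe their surroundings.

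**Figure D3:**
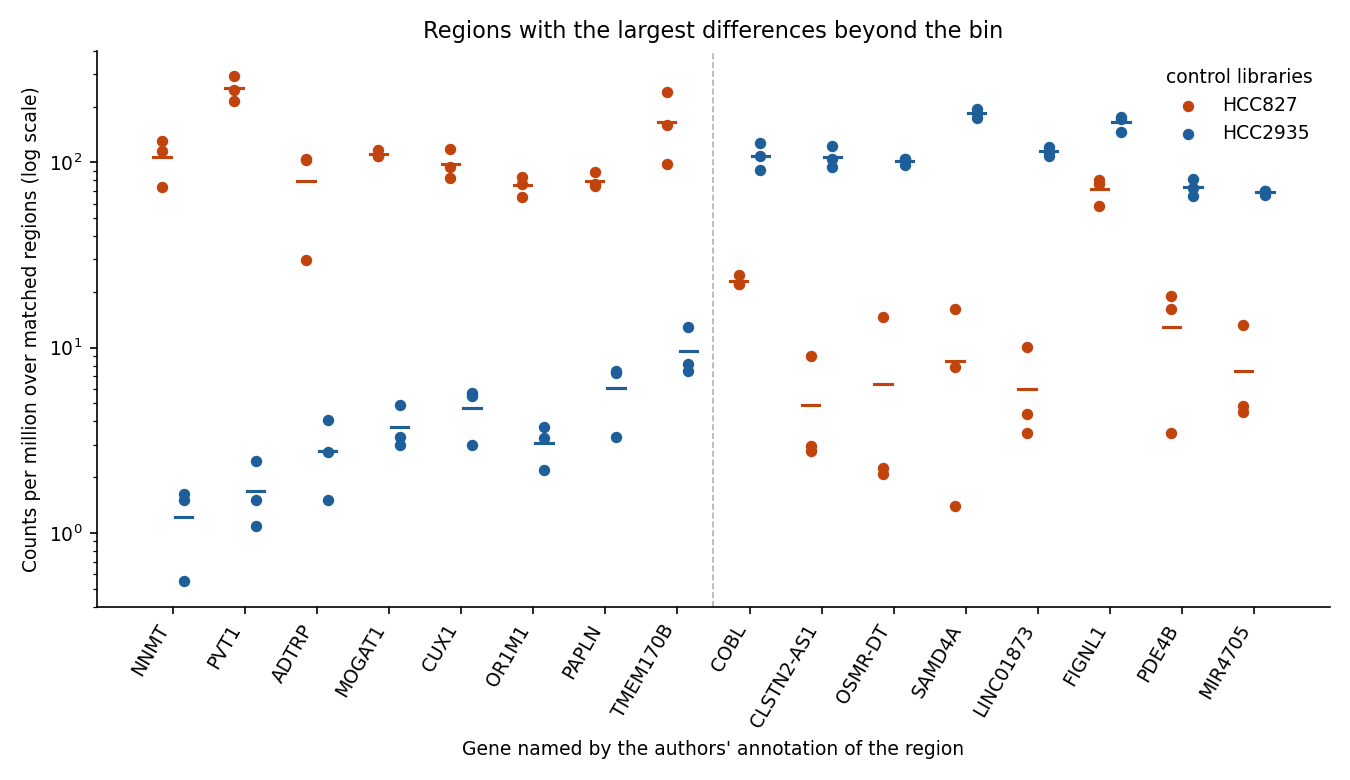
CPM over matched regions (log axis) of the 16 regions with the largest differences beyond the bin, each library a point and each mean a short line, with HCC827 and HCC2935 side by side. At each region the 3 points of one line lie clear of the 3 points of the other, as the choice of regions required. They run from NNMT with 73.3 to 131 CPM against 0.547 to 1.63 on the left to regions lower in HCC827 on the right.

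**Figure D4:**
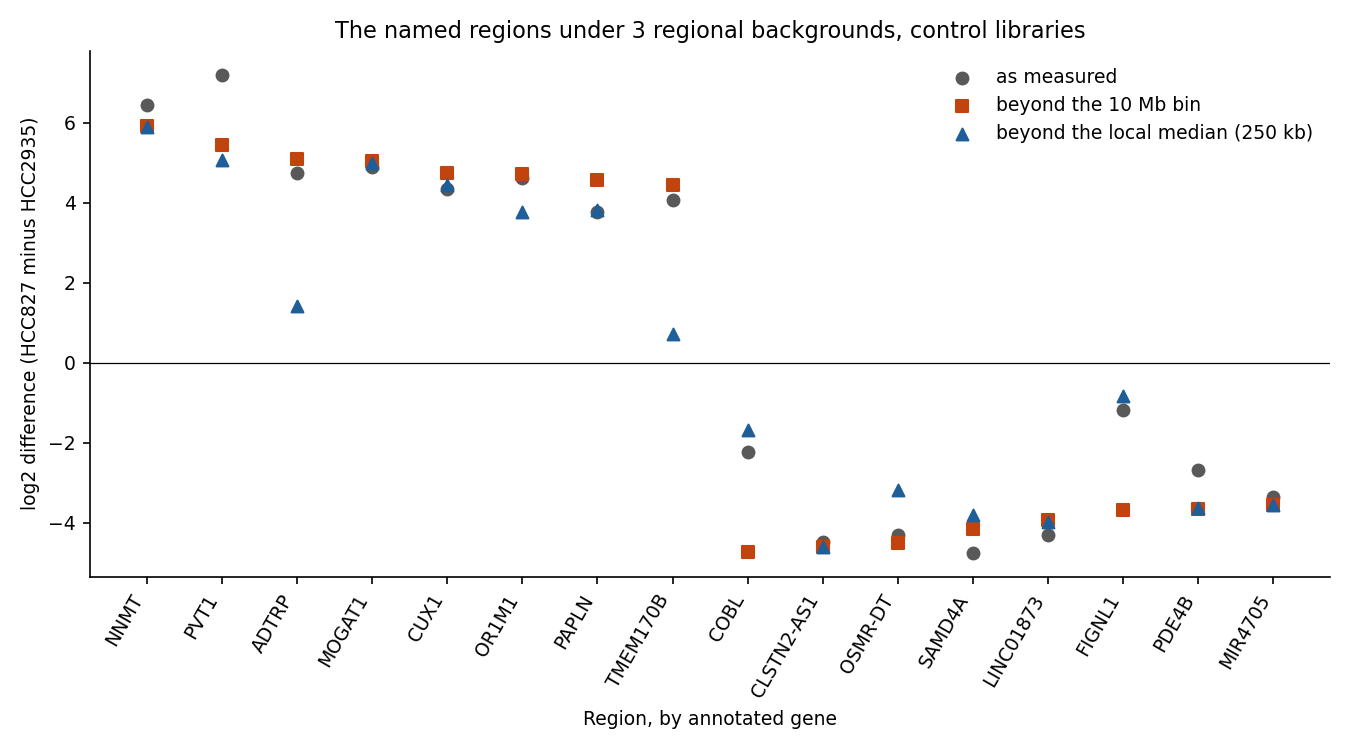
The log2 difference (HCC827 minus HCC2935) of the same 16 regions as measured, beyond the 10 Mb bin and beyond the median of regions within 250 kb. The 3 symbols lie close together for MOGAT1 and CLSTN2-AS1 and far apart for ADTRP, TMEM170B, COBL and FIGNL1.

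Genes with at least 5 tested regions were ranked by the median difference beyond the bin. There were 542 of them among 12295 genes, and their medians had a 5th percentile of -0.58 and a 95th of 0.95. ADTRP (3.85, 16 regions) and TMEM170B (3.43, 5 regions) ranked highest. The next 4 were all on chromosome 8. MAILR and GASAL1, both long non-coding RNAs, had medians of 2.09 and 2.07. TPD52, a gene often amplified in tumours, had 1.78, and PAG1, a membrane adaptor of Src family kinases, had 1.75. All 9 regions of GASAL1 and all 5 of TPD52 were called higher. Beyond the local median the 6 genes had medians of -0.31 to 0.33. After COBL, the lowest were LINC01101 (-1.22), RAI14 (-1.19), NEDD9 (-1.05), MLPH (-0.99) and GOLM1 (-0.97). MLPH, melanophilin, carries pigment granules, and GOLM1 is a Golgi membrane protein. These last values were -0.99 and -0.81 beyond the local median, while that of RAI14 was 0.04. In DTP and combo the medians beyond the bin were 0.24 and -0.03 for LINC01101 and -0.14 and 0.235 for MLPH. They were -0.13 and -0.06 for GOLM1, -0.49 and -0.77 for RAI14, and -0.68 and -0.66 for NEDD9. COBL had -2.80 and -3.705. The 6 highest genes had 1.04 to 3.86 in DTP and 1.39 to 3.88 in combo. Whether these medians changed with treatment was not tested.

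Gene groups were read at 1 promoter per gene, with 9239 promoters matched. Of all these, 1150 (12.4%) were called higher and 1070 (11.6%) lower in HCC827 beyond the bin, with a median of -0.01. As measured, 2186 were called higher and 2192 lower. Members named in each group were picked after their values were seen, and some of them were not called. The lists and members were chosen with results of these data known.

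In the EGFR family and its ligands, 6 of 12 promoters were matched, with 1 called higher (EGFR) and 2 lower. TGFA, a ligand of EGFR, had 51.6, 52.8 and 61.6 CPM in HCC827 and 140.0, 136 and 130.0 in HCC2935, without overlap. Its difference beyond the bin was -0.87 ± 0.13 (SE, adjusted p 0.000206). ERBB2, the partner receptor of EGFR, had 53.8, 71.8 and 85.2 CPM against 118, 122 and 109, a difference of -0.49 (adjusted p 0.0308). This call was lost without replicate 1 or 2 of either line, with adjusted p from 0.0517 to 0.156. The promoters of ERBB3, HBEGF and ERRFI1 were not called beyond the bin.

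Among 17 other receptor tyrosine kinases 8 promoters were matched, 1 called higher and 2 lower. IGF1R, the insulin-like growth factor receptor, had 21.3, 27.9 and 16.6 CPM against 8.76, 9.0 and 15.5. The difference beyond the bin was 1.43 ± 0.35 (SE, adjusted p 0.00681), and the lines came close without overlapping. Of the 6 matched regions of IGF1R, 2 were called higher beyond the bin and 1 lower. ALK had 14.6, 19.1 and 19.4 CPM against 56.4, 63.8 and 64.4, a difference of -1.36 ± 0.20 (SE, adjusted p 0.000168). FGFR2 was the other promoter called lower, at -0.90. AXL, a receptor linked to tolerance of EGFR inhibitors, had a promoter difference of 0.41 (adjusted p 0.36), while 2 of its 3 regions were called higher. MET had 5 matched regions, 2 called higher and 2 lower.

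Mesenchymal genes had 7 of 14 promoters matched, 3 called higher and 1 lower, with a median of 0.40. TWIST2 had 25.8, 33.7 and 11.8 CPM against 8.21, 5.25 and 6.52 at its promoter. Of the 2 matched regions of TWIST2, 1 was called higher beyond the bin and 1 lower. FN1, fibronectin, had 43.7, 44.0 and 43.6 CPM against 15.9, 6.75 and 28.5. ZEB1, a repressor of epithelial genes, had 31.4, 36.6 and 29.8 CPM against 13.7, 10.5 and 8.15. None of the 3 overlapped between the lines, and their differences beyond the bin were 1.65, 1.27 and 1.25 (adjusted p 0.00813, 0.01 and 0.00427). SNAI2, another repressor of epithelial genes, had 16.8, 14.7 and 22.9 CPM against 25.2, 25.5 and 15.5. These overlapped, and the call beyond the bin (-1.17, adjusted p 0.0077) was not made as measured (-0.25, adjusted p 0.519). Without replicate 1 of HCC2935 the adjusted p of FN1 was 0.0549.

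Epithelial genes were open in both lines, with 18 of 20 promoters matched. Beyond the bin 2 were called higher and 5 lower, with a median of -0.27. KRT18 and KRT7, keratins of simple epithelia, were lower by -0.86 and -0.79 beyond the bin (adjusted p 0.0042 and 0.00244). As measured they differed by -0.10 and -0.02 and their libraries overlapped. The bin they share, on chromosome 12, had a median of 0.78. ELF3, an epithelial factor, was lower by -0.77. ESRP1, an epithelial splicing factor, had 156, 138 and 157 CPM against 42.2, 52.5 and 35.1 and lay at 0.88 beyond the bin and 0.32 beyond the local median (adjusted p 0.166).

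The lung lineage list had 6 of 18 promoters matched, 1 called higher. CAV1 had 102, 86.5 and 92.8 CPM against 33.4, 26.3 and 58.7, a difference of 1.70 ± 0.23 (SE, adjusted p 6.76e-05) that was 1.66 beyond the local median. NKX2-1, the lung lineage factor, differed by 0.13 beyond the bin (adjusted p 0.628) and -0.54 as measured. FOXA1 and FOXA2, pioneer factors of lung epithelium, differed by -0.06 and 0.10 (adjusted p 0.857 and 0.794). In the gut and liver list, with 2 of 15 matched, GATA6 had 50.5, 52.8 and 49.9 CPM against 24.1, 18.0 and 24.5, a difference of 1.32 ± 0.20 (SE, adjusted p 0.000214). The other of the 2 matched regions of GATA6 was called lower beyond the bin, at -0.76. TM4SF4 was lower by -0.75, a call lost without replicate 3 of HCC2935 or replicate 1 of HCC827 (adjusted p 0.068 and 0.0789). The airway list had 2 of 13 matched, with KRT15 lower by -0.42 and SOX2 at 0.40 (adjusted p 0.0839). Leaving out the same replicates gave KRT15 an adjusted p of 0.0649 and 0.0896. Of the 3 matched regions of KRT15, 1 was called higher beyond the bin and 1 lower.

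Cell cycle genes and tumour suppressors had 13 of 21 promoters matched, 2 called higher and 2 lower. MYC, the growth-promoting factor, had 129, 135 and 163 CPM against 12, 14.3 and 18.8. Its difference was 3.29 as measured, 1.5 beyond the bin and 0.97 beyond the local median (adjusted p 8.88e-09, 0.000132 and 0.00583). All 3 matched regions of MYC were called higher. CDK4 was the other, and CDKN1B and STK11 were lower by -0.53 and -0.44. As measured CDKN1B differed by 0.03 (adjusted p 0.896), with 41.5, 49.8 and 63.0 CPM against 49.3, 51.8 and 53.8, so its call rests on the bin offset. CDKN2C, an inhibitor of CDK4, was called as measured at 1.61 and lay at 0.58 beyond the bin (adjusted p 0.108).

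Of the AP-1 genes 7 of 10 promoters were matched. As measured 2 were called higher and 4 lower, and beyond the bin 1 each. JUNB had 43.7, 46.9 and 48.5 CPM against 96.4, 116 and 85.6, a difference of -1.04 ± 0.16 (SE, adjusted p 0.000173). BATF3 was higher by 0.76, with an adjusted p of 0.0779 without replicate 1 of HCC2935 and 0.0945 without replicate 3 of HCC827. FOSL1 differed by -0.22 (adjusted p 0.224). Among Hippo and YAP/TEAD genes 12 of 15 were matched, 1 called higher and 2 lower. TEAD4, the DNA-binding partner of YAP, had 22.4, 45.4 and 32.5 CPM against 90.3, 81.8 and 45.7, and the lowest of HCC2935 came within 1 CPM of the highest of HCC827. Its difference was -1.58 ± 0.27 (SE, adjusted p 0.000462). CCN2, a target of YAP, was higher by 1.23, with overlapping libraries and 0.66 as measured (adjusted p 0.0522), ANKRD1, another target, was lower by -0.54, and AXL, YAP1 and TEAD1 were not called.

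SOX and KLF factors had 10 of 16 promoters matched, 1 called higher and 4 lower. KLF10 had 431, 375 and 425 CPM against 47.6, 51.0 and 43.2, a difference of 1.87 beyond the bin. KLF6 had 23.6, 24.9 and 22.2 CPM against 56.9, 64.5 and 51.4, a difference of -1.19. Beyond the local median KLF10 lay at -0.02 and KLF6 at 0.20, neither called. KLF2 was lower by -0.79 and by -0.71 beyond the local median. Of the HOX genes 9 of 39 were matched, with HOXA5 lower and none higher. It had 16.8, 17.6 and 20.8 CPM against 50.9, 50.3 and 51.4, a difference of -1.32 ± 0.20 (SE, adjusted p 0.000202). HOXA4, beside it, differed by 0.75 (adjusted p 0.148) with overlapping libraries.

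Interferon and antigen presentation genes had 5 of 19 promoters matched, 0 called higher and 1 lower beyond the bin. STAT2, a mediator of interferon signalling, was lower by -0.53 with overlapping libraries. It was not called without replicate 2 of HCC2935 (adjusted p 0.0552), nor as measured (0.24, adjusted p 0.178). Neuroendocrine genes had 4 of 10 matched, with POU3F2 higher by 1.13 beyond the bin. POU3F2 had 25.8, 24.9 and 41.6 CPM against 24.1, 17.3 and 22.8. As measured it was not called (0.57, adjusted p 0.0984), so its call rests on the offset, here that of chromosome 6. Housekeeping genes had 13 of 16 matched, 0 called higher and 3 lower. ACTB, beta-actin, had 35.9, 67.4 and 22.9 CPM against 135, 165 and 123 at its promoter region, a difference of -1.31, while its 11 regions had a median of -0.08. RPL13A and YWHAZ were lower by -0.59 and -0.76. The first call was lost without replicate 2 of either line (adjusted p 0.0572 and 0.0516) and the second without replicate 1 of HCC2935 (adjusted p 0.0567). As measured YWHAZ differed by 0.49 (adjusted p 0.0646), and 3 housekeeping promoters were called higher and 4 lower.

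**Figure D5:**
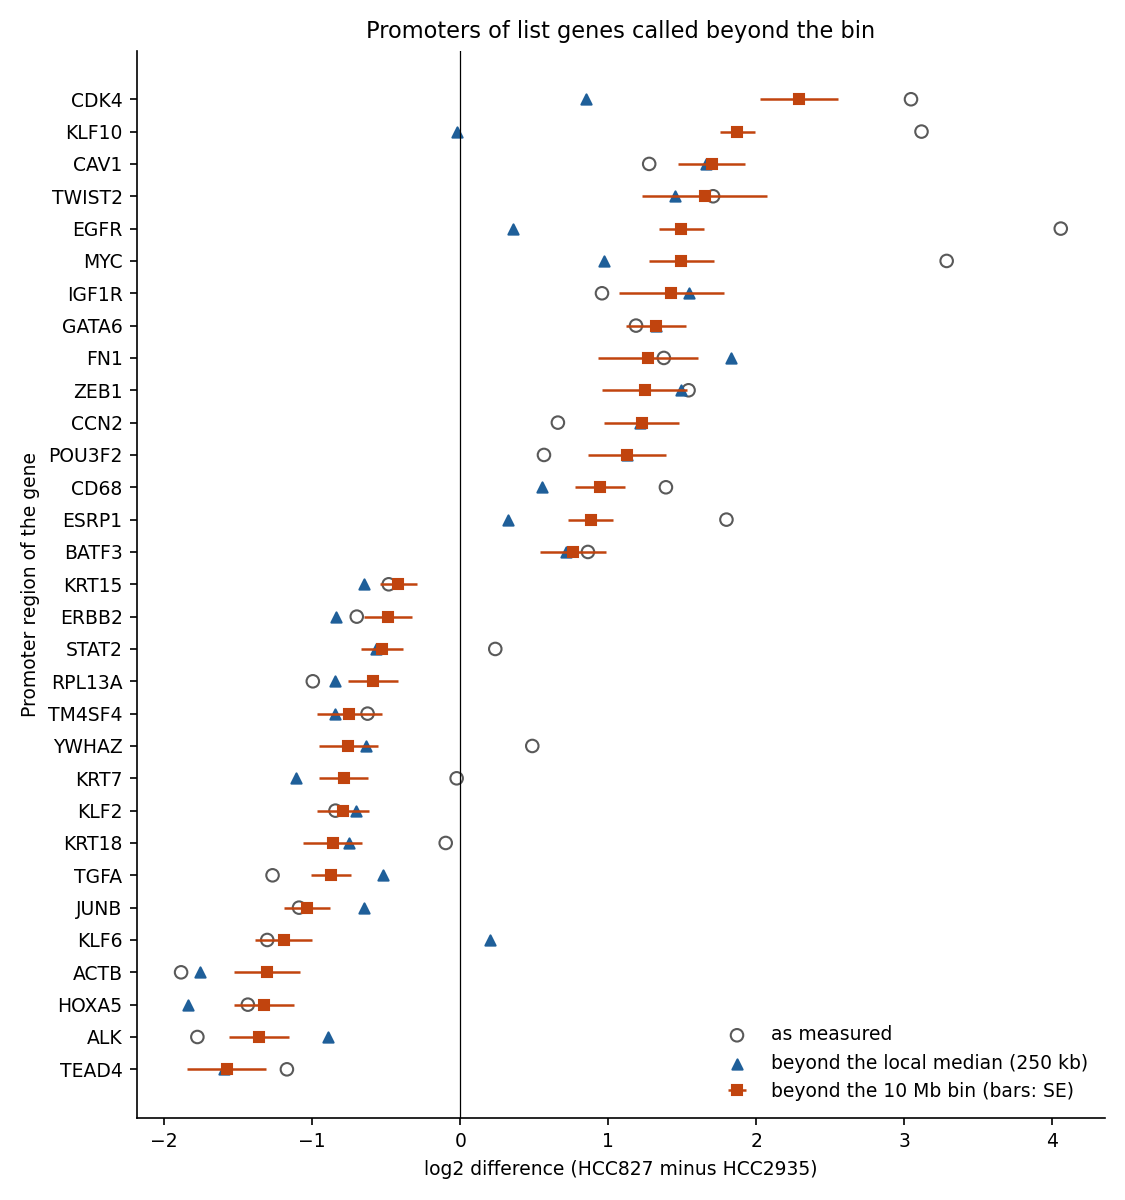
Promoter regions of 31 list genes that were named by size of difference, with EGFR, and called beyond the bin. The log2 difference (HCC827 minus HCC2935) is shown as measured, beyond the 10 Mb bin with its standard error, and beyond the median of regions within 250 kb. Called promoters named for other reasons, such as FGFR2 and SNAI2, are not drawn. EGFR, MYC, KLF10 and CDK4 lie far to the right as measured and move left beyond the local median, while TWIST2, GATA6 and ZEB1 lie near the same value under each.

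Few promoters of markers of other cell types were matched. A promoter in the table of 1 line only cannot be matched, so low counts do not show that a marker is absent. Fibroblast markers had 1 of 8 promoters matched (COL1A1), with 46.4 to 54.2 CPM in HCC827 and 55.5 to 61.5 in HCC2935. Blood cell markers had 1 of 10 (CD68, a lysosomal protein), with 135 to 199 CPM against 54.0 to 77.2, and PTPRC, CD3E and LYZ had none. Endothelial markers had 0 of 7, though 4 of these genes had a tested region. The matched promoters of epithelial genes summed to 1300 to 1490 CPM in HCC827 and 1320 to 1360 in HCC2935. Surfactant genes, which define alveolar type 2 cells, had no matched promoter.

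Some listed genes had a promoter region in an annotated table that could be paired only in the full tables, and examples were picked after their values were seen. HNF4G, a gut and liver factor, had 49.7, 40.2 and 54.1 CPM of the full tables in HCC827 and 2.04, 2.13 and 0.755 in HCC2935 (4.80, adjusted p 4.47e-10). The table of HCC827 gave it 7 regions and that of HCC2935 gave it 0. HNF4G lies on chromosome 8, where the median over 633 regions was 0.89. Parts of that chromosome stood much higher, with medians of 3.0 and 3.245 in the 1 Mb windows that start at 73 and 74 Mb. The surroundings of HNF4G were not allowed for. HOPX, a factor of alveolar cells, had 0.502, 1.98 and 1.19 CPM against 19.6, 23.4 and 18.5 (-4.08, adjusted p 1.23e-07). Other alveolar genes went both ways, with SLC34A2 at 8.04, 7.91 and 21.5 CPM against 2.55, 3.19 and 1.51 (adjusted p 0.000203). SFTPB (1.15) and LAMP3 (0.90) were also higher in HCC827, and NAPSA (-1.36) was lower. CDH5, the cadherin of endothelium, had 0, 1.98 and 1.99 CPM against 33.9, 24.8 and 25.3 (-4.36, adjusted p 8.72e-08). TP63, the basal cell factor, had 2.01, 3.30 and 1.99 CPM against 9.69, 11.3 and 7.55. These differences are as measured, with no allowance for the bin.

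The difference between the lines was also read in treated libraries. In the DTP libraries 8643 of 21630 tested regions were called (40.0%), and in the combo libraries 8569 of 21602 (39.7%). Counts in matched regions were 521030 to 1734121 per HCC827 DTP library and 2035055 to 2451213 per HCC2935 DTP library. In combo they were 464994 to 1536613 and 2103271 to 3071632. Depth thus differed with the line in treated libraries, and its effect on the calls was not tested. Regions called in the same direction in control and DTP were 5904, or 58.1% of the control calls and 68.3% of the DTP calls. For combo they were 5507, or 54.2% and 64.3%. Opposite directions were seen at 124 and 210 regions.

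All 16 named regions were called in the same direction beyond the bin in DTP and 15 in combo, at smaller differences in 15 of 16 in each. These regions were picked on the control values, so a smaller difference elsewhere is not read as a change. The NNMT region had 161, 127 and 115 CPM in HCC827 DTP and 37.0, 24.4 and 27.5 in HCC2935 DTP, a difference of 2.09. The HCC2935 controls had 0.547 to 1.63 CPM at this region. At PDE4B the DTP libraries had 54.4, 55.4 and 37.5 CPM in HCC827, against 3.46 to 19.1 in control. The HCC2935 DTP libraries had 42.6, 44.3 and 41.5 CPM, so the lines overlapped. The DTP difference was 0.10 as measured (adjusted p 0.693) and -0.98 beyond the bin, so its call there rests on the bin offset. TMEM170B was the region that did not shrink in DTP, with 4.88. Whether these differences changed with treatment was not tested here.

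Of the 31 named promoters called beyond the bin, 24 were called in the same direction in DTP and 18 in combo, and 0 in the opposite direction. Those of CDK4 (2.78 in DTP, 2.88 in combo), ALK (-1.38 and -1.96) and HOXA5 (-1.12 and -0.98) were among them. GATA6 was at 0.02 and 0.20, ZEB1 at 0.23 and 0.43 and TEAD4 at -0.51 and 0.44, none called in either. The share of all calls beyond the bin that recurred in treated libraries is not given here. The counts for named regions and promoters are therefore not read as particular to them.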

How the data were processed

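The authors deposited raw counts of reads per region and library in 2 tables per line, both with regions of 502 bp, of which the annotated table is a subset kept by a filter not given in the sources used here. They also deposited a peak list per library with the q value of each peak as −log10, used here only to count peaks. The submitters' processing notes name hg38, BWA 0.7.17, SAMtools 1.9, deepTools 3.4, MACS2 2.2.6, featureCounts 2.0.0 and ChIPseeker 1.29.1.

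Regions were paired one to one by largest overlap (median 476 bp), and 99.63% of pairs had the same gene name in both tables. Counts in matched regions were 681434 to 1430526 per HCC827 control library and 1219910 to 1831571 per HCC2935 library. Control peak lists held 44119 to 165773 and 100211 to 204759 peaks. Between replicates the variance was 1.482 to 2.768 times that of counting noise in HCC827 and 1.344 to 1.894 in HCC2935, so no 2 libraries were merged. The biological coefficient of variation was 17.64% and 8.76%.

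Only the 6 libraries of a comparison entered its fit. edgeR 4.0.16 in R 4.3.3 was used with totals over matched regions, TMM factors, filterByExpr and the quasi-likelihood F test, adjusted by Benjamini-Hochberg over all tested regions (threshold 0.05). SE is the difference divided by the root of F. For values beyond the bin, the median log2 CPM deviation (prior count 2) of each library in each 10 Mb bin, or in the chromosome where a bin had under 50 regions, entered as an offset. Beyond the local median, the offset came from at least 10 matched full-table regions within 250 kb, available for 90% of tested regions, else from the bin. limma 3.58.1, DESeq2 1.42.0 and other filters, scalings, overlaps and left-out replicates were alternatives. On simulated counts of 21524 regions of this comparison, 65% of 100 changes of 2-fold and 98% of 100 of 4-fold were recovered. Unlike the data, the simulated counts had few changed regions and no regional shifts. The shares therefore do not measure how many differences of these lines were found. Of 12331 gene IDs, 12328 were in the RefSeq table. Bins named were the 5 highest and 5 lowest. Regions named were the 8 largest in each direction beyond the bin with separated libraries and a mean above the median. Genes named were the 6 highest and 6 lowest medians of at least 5 regions, with up to 3 promoters per list by size and EGFR, and further listed genes chosen after their values were seen. The members and lists were chosen with earlier results of these data known. One listed gene is not reported here and is left out of its list. The authors' other tables and lists were not used.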

Additional observations from a re-analysis of the deposited data

How the results depend on the processing

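Directions of the named bins, regions and called promoters held under the alternatives tried, with the exceptions given here. As measured, 5443 regions were called with a mean of at least 50 counts, 4873 with a log2 difference of at least 1 and 32003 over the full tables, against 10169. The filter at 50 counts tested fewer regions, with only 5478 of the 10169 calls among them, and 4523 of those were called again. DESeq2 called 7709, limma voom with group weights 10028, and leaving out a replicate 7997 to 10219. Beyond the bin 3782 were called with a mean of at least 50 counts and 3501 at a log2 difference of at least 1, against 6794, and 4756 to 7342 without a replicate. Of the 6794 calls, 3363 were among the regions tested at 50 counts. For bins the count was 229 of 270 with at least 20 regions, against 133 of 163. It was 73 of 89 for promoters only, 29 of 42 for other regions and 126 to 139 without a replicate. In DTP, DESeq2 called 5704 regions against 8643. Without a replicate 5946 to 9591 were called in DTP and 5869 to 9068 in combo. The replicate numbers did not pair the libraries (correlations of deviations -0.022, -0.035 and -0.209), and with this number as a replicate block the fits called 9208 regions as measured, 5977 beyond the bin, 6568 in DTP, 6589 in combo and 131 bins.

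Under the local median the sign turned for the promoters of KLF10 (-0.023), KLF6 (0.20), ETV5 (-0.064, from 0.26 and not called) and ISG15 (-0.089, from 0.14 and not called) and for the medians of TMEM170B (-0.31) and RAI14 (0.042). SYP turned to -0.019 with the stricter overlap, from 0.47 and not called. The cause was not tested. With 3 libraries a line, changes of 2-fold were recovered less often than changes of 4-fold on simulated counts, and HCC827 libraries varied more than those of HCC2935. With totals only as scaling, 4170 DTP calls were higher and 4585 lower, against 4589 and 4054, and 4095 combo calls were higher and 4514 lower, against 4539 and 4030. Regions seen in 1 line only cannot enter.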
